A study of Mus musculus with 6 samples.

Results

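The enzymes described here write, remove or read chemical marks on histones and DNA. They were the 71 genes whose platform symbol is Kdm, Kmt, Hdac, Sirt, Setd, Tet, Ezh, Dnmt or Prmt followed by a number, without Kdm5d, plus Jarid2, Eed and Suz12. They were chosen by name out of 18193 genes measured. Each gene was represented by its brightest probe set, the one with the highest mean log2 intensity over the 6 arrays. The cells were bone marrow macrophages of knockin (KI) and wild-type (WT) C57BL/6 mice, kept in both groups for 24 h with 44 ng/ml M-CSF and 100 ng/ml RANKL. There were 3 KI and 3 WT arrays of the Affymetrix mouse expression platform. M-CSF sustains macrophage precursors, and RANKL, acting through its receptor RANK, drives them towards osteoclasts, the cells that resorb bone. The series title names the IVVY motif of RANK and genes it regulates. Which residues were changed in the knockin is not stated in the labels, and a 3′ expression array does not check such a change. The labels also do not say whether the arrays of a group came from separate mice or cultures, so p-values measure only the spread between these samples, which may be technical.

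Histone methyltransferases and demethylases add and remove methyl groups on lysine or arginine residues, histone deacetylases and the NAD-dependent sirtuins remove acyl groups, and DNA methyltransferases and TET enzymes set and oxidise cytosine methylation. Polycomb repressive complex 2, built around Ezh1 or Ezh2 with Eed and Suz12, places repressive methyl marks on histone H3. In mouse osteoclast precursors, Ezh2 and Dnmt3a are known to silence genes that hold back differentiation, among them Irf8, while Hdac7 and Hdac9 are known to restrain it.

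The KI arrays carried less RNA signal of Jarid2, of most arginine methyltransferases, of Setd6, Kmt5a, Hdac2 and Dnmt3a, and more signal of Hdac9, Setd7 and Sirt2. At an adjusted p under 0.05 (limma with Benjamini-Hochberg adjustment over all 18193 genes), 10 of the 71 enzymes were higher in KI cells and 18 were lower, and 43 did not pass. Over all genes 26.8% were called, 11.9% as higher and 14.9% as lower. Most of the enzymes are bright on these arrays, and among genes with a mean log2 intensity over 6.40, the median of all probe sets other than controls, 40.9% were called (17.8% as higher and 23.1% as lower). Of the 65 enzymes over that level, 9 were higher and 17 lower, a share near this background. The median log2 difference was -0.10 for the enzymes and -0.00 for all genes. The KI and WT arrays did not overlap for 42 of the 71 enzymes, against 45.2% of all genes, and for 40 of the 65 brighter enzymes, against 64.4% of the brighter genes, which is no larger a share. They did not overlap for any of the 28 called enzymes.

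A 2-fold difference was reached by 10 of the called enzymes, where 5.27% of all genes and 8.47% of the brighter genes were called and reached it. The 7 falls of that size were Jarid2, Prmt1, Prmt3, Prmt5, Setd6, Kmt5a and Hdac2, and the 3 rises were Hdac9, Setd7 and Sirt2. Intensities of mixed RNA do not tell fewer expressing cells from less RNA per cell, and 3 arrays per group limit the precision of every value.

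**Figure D1:**
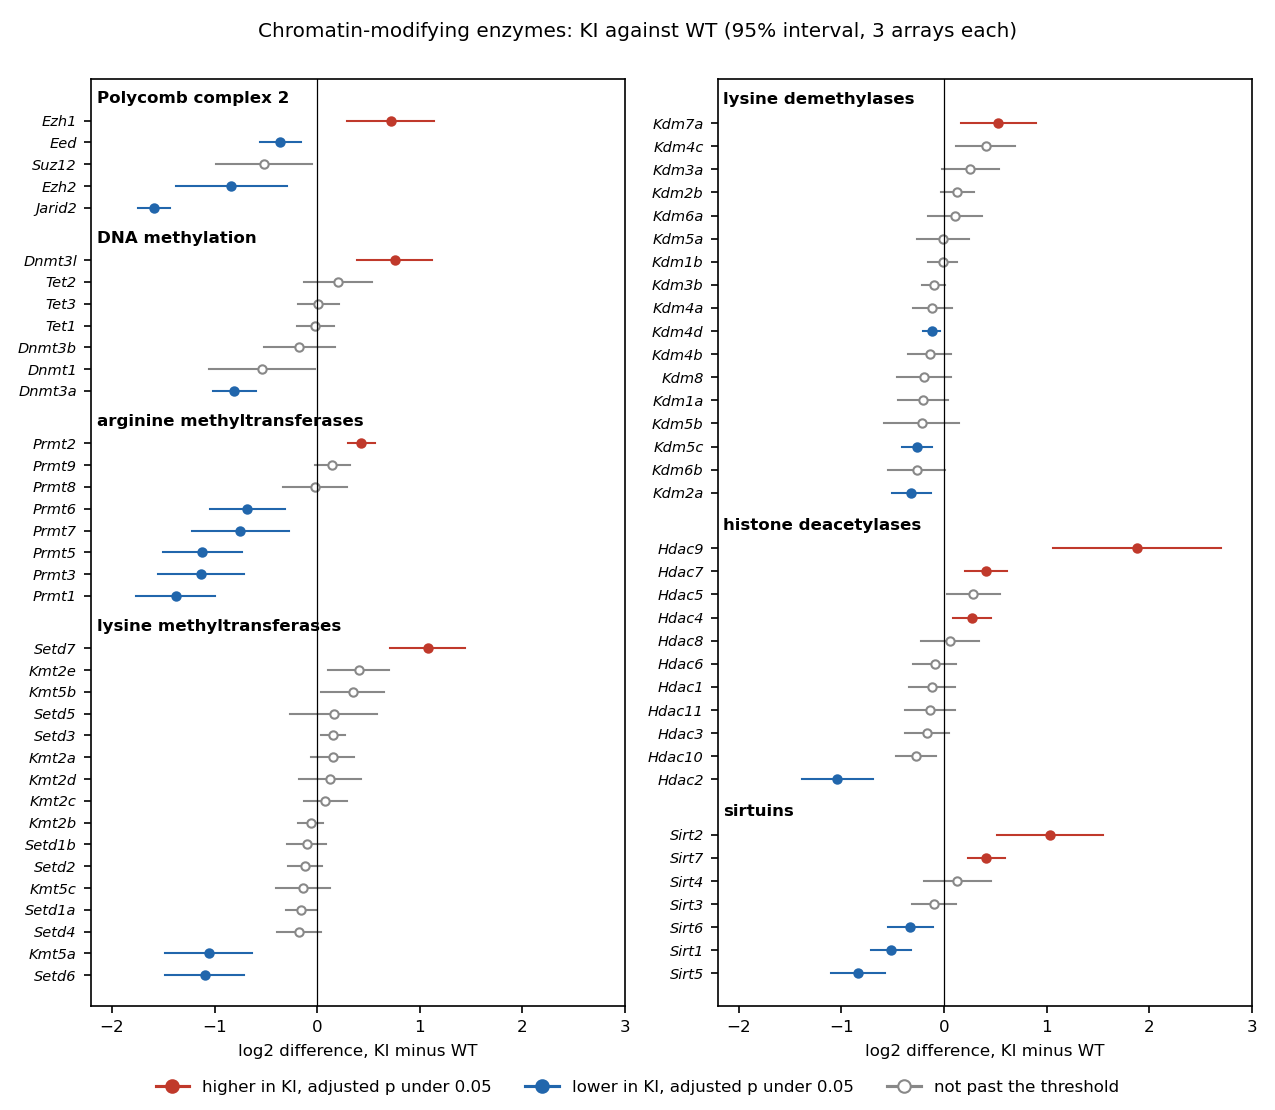
Log2 difference, KI minus WT, of the 71 enzymes by family (points) with its 95% interval (lines), 3 arrays per group; red and blue points are the 10 higher and 18 lower in KI cells at an adjusted p under 0.05, and open points did not pass. Arginine methyltransferases lie mostly left of 0. With the older spike-in scaling, Hdac4, Hdac7, Sirt7, Prmt2 and Kdm7a turn to values under 0.

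These calls leaned on how the arrays were scaled. With each array scaled to the newer set of 9 hybridisation spike-in probe sets, 6 enzymes were higher and 29 lower, where 7.04% of all genes were higher and 27.2% lower. The calls of Prmt2, Hdac7, Hdac4 and Kdm7a ended there. The older set of 9 probe sets for the same spike-ins gave 1 higher, Hdac9, and 40 lower, where 2.31% of all genes were higher and 45.1% lower. The shares among the brighter genes were not computed under either scaling, so neither count is read as an excess of falls. The median of all genes moved to -0.20 and -0.51 under these scalings, so that the enzymes' medians of -0.31 and -0.63 lay 0.11 and 0.12 under the median of all genes. Which scaling is nearer to the RNA content of the cells was not tested.

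Single arrays also mattered. The counts were 5 higher and 10 lower without KI 1, 8 and 11 without KI 2, and 2 and 10 without KI 3. They were 7 and 16 without WT 1, 6 and 13 without WT 2, and 7 and 10 without WT 3. Of all genes, 15.2%, 17.4% and 11.1% were called without KI 1, KI 2 and KI 3. Without WT 1, WT 2 and WT 3 these shares were 24.1%, 18% and 19.5%. As deposited the share was 26.8%, so calls were lost over all genes as well. KI 1 and WT 1 lay farthest out on the first principal component of the enzymes, which held 90.1% of their variance, with scores of -3.14 for KI 1 and 3.78 for WT 1. The same held for all brighter probe sets, where the first component held 82.2% of the variance (-54.0 for KI 1 and 66.5 for WT 1). KI 1 was the lowest KI array for 15 of the 18 enzymes that fell, and WT 1 the highest WT array for 14. Without both, 7 were higher and 15 lower, where 24.7% of all genes were called. The 9 falls of Jarid2, Prmt1, Prmt3, Prmt5, Setd6, Kmt5a, Hdac2, Sirt5 and Dnmt3a kept their call in every alternative that gave a value, apart from the fit with the replicate number as a block. The rises that did numbered 0 of 10. A covariate taken from the number in each sample's description was also fitted, and there 2 enzymes were higher, Setd7 and Prmt2, and the same 9 were lower. With that covariate 9.18% of all genes were called.

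The promoters of the 2 enzymes with the largest falls and the 2 with the largest rises are shown, so that the letters upstream of the largest differences can be read. They are the 250 bases before the annotated start in RefSeq (GRCm38.p6), printed 5′ to 3′ on the gene's strand, with matches to the searched motifs in capitals. Jarid2 and Hdac9 have more than 1 window in the table, and 1 is shown for each. Jarid2 is on the plus strand at chr13:44730524-44730773, Prmt1 on the minus strand at chr7:44986421-44986670, Hdac9 on the minus strand at chr12:34917096-34917345 and Setd7 on the minus strand at chr3:51560824-51561073.
Jarid2: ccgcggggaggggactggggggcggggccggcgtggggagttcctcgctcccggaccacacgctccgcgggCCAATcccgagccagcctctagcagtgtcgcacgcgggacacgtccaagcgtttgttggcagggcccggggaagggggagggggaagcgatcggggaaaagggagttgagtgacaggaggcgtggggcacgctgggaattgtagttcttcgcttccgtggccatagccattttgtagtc
Prmt1: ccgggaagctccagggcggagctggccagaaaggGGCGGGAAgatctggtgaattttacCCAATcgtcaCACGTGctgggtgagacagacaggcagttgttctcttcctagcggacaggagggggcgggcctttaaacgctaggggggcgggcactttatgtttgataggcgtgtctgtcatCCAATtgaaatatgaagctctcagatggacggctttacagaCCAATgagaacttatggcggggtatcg
Hdac9: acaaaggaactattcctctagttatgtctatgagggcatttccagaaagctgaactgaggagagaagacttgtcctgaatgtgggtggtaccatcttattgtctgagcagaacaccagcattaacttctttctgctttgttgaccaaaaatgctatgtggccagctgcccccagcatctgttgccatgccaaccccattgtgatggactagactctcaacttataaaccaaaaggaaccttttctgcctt
Setd7: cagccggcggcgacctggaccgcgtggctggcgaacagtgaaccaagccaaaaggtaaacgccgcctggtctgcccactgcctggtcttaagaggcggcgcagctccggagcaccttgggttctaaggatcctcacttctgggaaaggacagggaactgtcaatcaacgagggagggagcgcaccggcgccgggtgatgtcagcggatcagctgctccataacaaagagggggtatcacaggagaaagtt

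The searched motifs were the E-box CACGTG, which Myc and related factors bind, the E2F-type site TTCCCGCC, the CCAAT box and the AP-1-type site TGANTCA, each on both strands. No match overlapped a match to another motif in the windows shown. The Prmt1 window holds 1 E-box, 1 E2F-type match and 3 CCAAT boxes, and the Jarid2 window holds 1 CCAAT box. The Hdac9 and Setd7 windows shown hold none of the 4 motifs. The Hdac9 window not shown holds 1 AP-1-type match, and the Jarid2 window not shown holds none of the 4. Of the 71 enzymes, 60 had a promoter in the table. Among the 23 windows of the enzymes that fell, 4 (17.4%) held an E-box and 11 (47.8%) a CCAAT box. Among the 16 windows of those that rose, 1 (6.25%) held an E-box and 3 (18.8%) a CCAAT box. Among the 45 windows of enzymes that did not pass, 2 (4.44%) held an E-box and 19 (42.2%) a CCAAT box, a CCAAT share close to that of the enzymes that fell. Over all 32851 windows in the table the shares were 6.02% and 33.8%. E2F-type matches lay in 2 of the 23 windows (8.70%), 1 of Prmt1 and 1 of Sirt6, and in 0 of the 16. They lay in 1 of the 45 (2.22%) and in 1.86% of all windows. AP-1-type matches lay in 1 of the 23 (4.35%) and in 1 of the 16 (6.25%), that of Hdac9. They lay in 2 of the 45 (4.44%) and in 6.75% of all windows. A match describes letters only, and windows of 1 gene can overlap.

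The 5 members of Polycomb complex 2 split, with 3 lower, 1 higher and 1 not past the threshold. Jarid2, a DNA-binding partner that recruits the complex and has no demethylase activity of its own, had log2 intensities of 10.76, 10.86 and 10.96 on the KI arrays, against 12.49, 12.41 and 12.44 on the WT arrays. Every KI array lay far below every WT array, and the arrays of a group lay close together. The log2 difference was -1.59 (SE 0.06, adjusted p = 0.0010 by limma), a 3.01-fold lower level in KI cells.

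Ezh2, the catalytic subunit of dividing cells, read 9.53, 10.24 and 10.07 on the KI arrays, against 11.05, 10.65 and 10.66 on the WT arrays. KI 1 was the lowest array and WT 1 the highest, and the groups did not overlap. Its log2 difference was -0.84 (SE 0.22, adjusted p = 0.040 by limma). That call ended without KI 1 (adjusted p = 0.064), KI 3 (0.093), WT 1 (0.095), WT 2 (0.078) or WT 3 (0.078). Without KI 1 and WT 1 together the call was kept at a smaller difference of -0.50 (adjusted p = 0.021).

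Ezh1, the catalytic subunit typical of resting cells, ran the other way, with 10.93, 10.46 and 10.50 on the KI arrays, against 9.66, 10.06 and 10.02 on the WT arrays. The log2 difference was 0.72 (SE 0.17, adjusted p = 0.031 by limma), and here KI 1 was the highest array and WT 1 the lowest. The call ended on leaving out any 1 array, with differences of 0.57 without KI 1 to 0.80 without KI 2 and adjusted p of 0.056 to 0.076, and under the older spike-in scaling (0.19). A mean of all 4 Ezh1 probe sets gave 0.26 (adjusted p = 0.089), and it was -0.04 from the brightest probe set whose name does not end in _s_at, _x_at or _a_at.

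Eed, a subunit that binds the methyl mark, had 11.51, 11.62 and 11.54 on the KI arrays, against 12.07, 11.79 and 11.88 on the WT arrays. It fell by 0.36 (SE 0.08, adjusted p = 0.028 by limma), had -0.30 with the mean of both probe sets (adjusted p = 0.11), and lost the call without KI 1 (0.087), KI 2 (0.059), KI 3 (0.094) or WT 3 (0.066). Suz12, which holds the complex together, read 10.82, 11.01 and 10.85 on the KI arrays, against 11.82, 11.22 and 11.18 on the WT arrays. The groups did not overlap, but WT 1 stood well above the other WT arrays and the difference of -0.52 did not pass (SE 0.19, adjusted p = 0.097 by limma). It passed without WT 1, where it was smaller, at -0.31 (adjusted p = 0.041), and with the filter on dim probe sets (0.048). All 6 Suz12 probe sets had differences below 0, from -0.70 to -0.36, and 1 that does not stand for the gene was called lower over all probe sets (-0.54, adjusted p = 0.039).

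**Figure D2:**
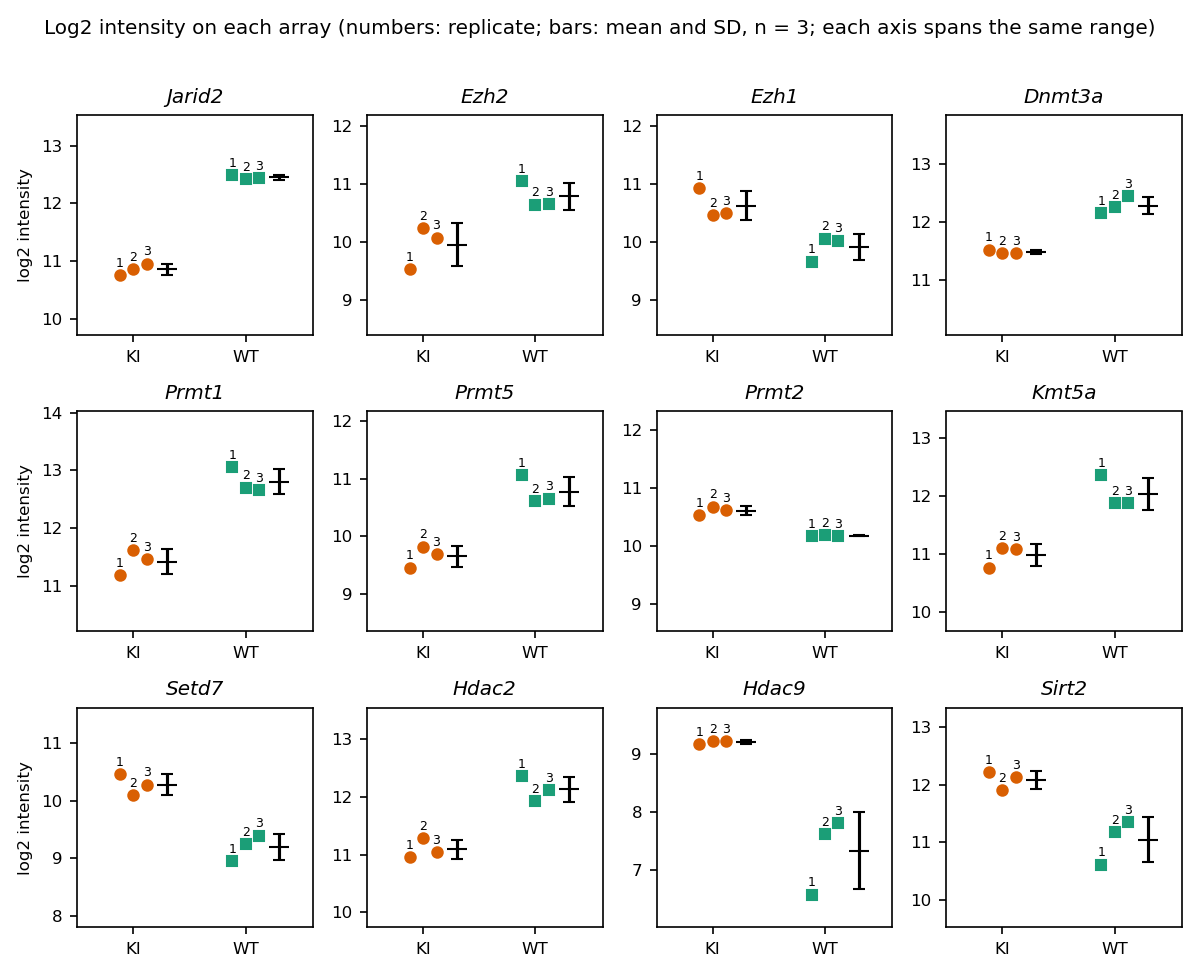
Log2 intensity on each KI (circles, left) and WT (squares, right) array for 12 enzymes, with replicate numbers beside the points and the mean with SD (n = 3) as bars; every vertical axis spans the same range. The groups do not overlap in any panel, and WT 1 is the lowest WT array for Hdac9 and Sirt2. Of these, Prmt2 turns to a value under 0 with the older spike-in scaling.

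Of the 7 enzymes of cytosine methylation, 1 fell and 1 rose. Dnmt3a, which methylates new sites, had 11.52, 11.46 and 11.46 on the KI arrays, against 12.15, 12.26 and 12.45 on the WT arrays. The KI arrays lay close together and all below the WT arrays. It fell by 0.81 (SE 0.08, adjusted p = 0.0040 by limma). Dnmt1, which copies methylation after replication, read 11.17, 11.65 and 11.45 on the KI arrays, against 12.36, 11.79 and 11.74 on the WT arrays, a difference of -0.54 that did not pass (adjusted p = 0.12 by limma). It was -0.34 without WT 1, and -0.21 without KI 1 and WT 1.

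Dnmt3l, a partner of the Dnmt3 enzymes that lacks catalytic activity, was dim, with 6.56, 6.94 and 6.64 on the KI arrays, against 5.82, 6.18 and 5.87 on the WT arrays. The difference was 0.75 (SE 0.15, adjusted p = 0.019 by limma), with 0.060 without KI 3, 0.058 without WT 3 and 0.44 under the older spike-in scaling, where the difference was 0.22. The remaining 4 enzymes did not pass. Dnmt3b, the other enzyme that methylates new sites, had 7.27, 7.36 and 7.13 on the KI arrays, against 7.69, 7.30 and 7.28 on the WT arrays.

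Tet2, the brightest of the TET dioxygenases here, had 10.73, 10.41 and 10.31 on the KI arrays, against 10.12, 10.34 and 10.37 on the WT arrays, and the groups overlapped. Tet1 was at 5.24, 5.04 and 4.99 on the KI arrays, against 5.08, 5.10 and 5.14 on the WT arrays. Tet3 was at 6.11, 6.10 and 6.33 on the KI arrays, against 6.12, 6.18 and 6.20 on the WT arrays. Their log2 differences, in that order, were 0.21, -0.02 and 0.01.

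Of the 8 arginine methyltransferases, 5 fell, 1 rose and 2 did not pass, with a median of -0.71. Prmt1, which makes most asymmetric dimethylarginine, had 11.18, 11.62 and 11.47 on the KI arrays, against 13.05, 12.70 and 12.65 on the WT arrays. Prmt1 fell by 1.38 (SE 0.16, adjusted p = 0.0046 by limma), a 2.60-fold lower level, and the groups stood well apart. Prmt5, which makes symmetric dimethylarginine, had 9.46, 9.82 and 9.69 on the KI arrays, against 11.06, 10.61 and 10.66 on the WT arrays. It fell by 1.12 (SE 0.15, adjusted p = 0.0074 by limma).

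Prmt3, a cytoplasmic enzyme that methylates a ribosomal protein, read 9.99, 10.44 and 10.13 on the KI arrays, against 11.61, 11.17 and 11.19 on the WT arrays, a difference of -1.13 (SE 0.17, adjusted p = 0.0088 by limma). With the mean of all its probe sets the difference was -0.74. Prmt6, a nuclear enzyme, read 8.39, 8.49 and 8.28 on the KI arrays, against 9.36, 8.86 and 8.98 on the WT arrays. The groups stayed apart, and the fall was 0.68 in size (SE 0.15, adjusted p = 0.024 by limma).

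Prmt7, which makes monomethylarginine, had 9.27, 9.67 and 9.55 on the KI arrays, against 10.61, 10.05 and 10.07 on the WT arrays. Its difference was -0.75 (SE 0.19, adjusted p = 0.037 by limma), and -0.25 with the mean of all its probe sets. The call for Prmt6 ended without KI 1 (adjusted p = 0.074), KI 2 (0.056), KI 3 (0.087) or WT 3 (0.055). The call for Prmt7 ended without KI 1 (0.11), KI 2 (0.065), KI 3 (0.10), WT 2 (0.060) or WT 3 (0.061).

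Prmt2, a weak enzyme that also acts as a coactivator, was the exception. It had 10.52, 10.67 and 10.61 on the KI arrays, against 10.17, 10.18 and 10.17 on the WT arrays. It rose by 0.43 (SE 0.05, adjusted p = 0.0059 by limma), but by 0.23 with the newer spike-in scaling (adjusted p = 0.11), and with the older one the difference was -0.10 (adjusted p = 0.75). Prmt8 and Prmt9 did not pass, with differences of -0.02 and 0.15.

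Among 16 lysine methyltransferases, 2 fell, 1 rose and the other 13 did not pass, with a median of 0.01. Setd6, which methylates the NF-kB subunit RelA, had 8.11, 8.53 and 8.34 on the KI arrays, against 9.66, 9.32 and 9.29 on the WT arrays. It fell by 1.10 (SE 0.15, adjusted p = 0.0078 by limma). Kmt5a, which monomethylates histone H4 and is needed for chromosome compaction, had 10.76, 11.09 and 11.08 on the KI arrays, against 12.36, 11.87 and 11.87 on the WT arrays.

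Kmt5a fell by 1.06 (SE 0.17, adjusted p = 0.011 by limma), and WT 1 was again the highest array. Setd7, which monomethylates histone H3 and many other proteins, had 10.46, 10.10 and 10.28 on the KI arrays, against 8.96, 9.25 and 9.39 on the WT arrays. It rose by 1.08 (SE 0.15, adjusted p = 0.0071 by limma), a 2.11-fold change, with 0.55 under the older spike-in scaling (adjusted p = 0.078) and 0.54 as the mean of both probe sets. Kmt2a, Kmt2b, Kmt2c, Kmt2d, Setd1a and Setd1b, which methylate histone H3 at active genes, did not pass, with differences between -0.16 (Setd1a) and 0.15 (Kmt2a). Kmt2e, a relative not known for such activity, did not pass either, with 0.41 (adjusted p = 0.058 by limma). Setd1a passed without WT 1 (adjusted p = 0.049) and Kmt2e without KI 2 (0.048).

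Of 17 lysine demethylases, 3 fell, 1 rose and 13 did not pass, and the called differences were small. Kdm7a, which removes repressive methyl marks, had 11.08, 10.78 and 10.74 on the KI arrays, against 10.09, 10.43 and 10.50 on the WT arrays. The difference was 0.53 (SE 0.15, adjusted p = 0.049 by limma). It lost the call when any 1 array was left out (adjusted p of 0.065 to 0.12), and was 0.23 as the mean of its 5 probe sets (adjusted p = 0.19), 0.32 with the newer spike-in scaling and -0.00 with the older one.

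Kdm5c, an X-linked enzyme that removes methyl groups at active promoters, had 10.09, 10.12 and 10.13 on the KI arrays, against 10.35, 10.31 and 10.47 on the WT arrays. The groups did not overlap, with a difference of -0.26 (SE 0.06, adjusted p = 0.027 by limma). That call ended without KI 1 (0.082), KI 2 (0.076), KI 3 (0.087) or WT 3 (0.059), and the difference was -0.13 with the mean of all 9 probe sets. Single Kdm5c probe sets ran from -0.59 to 0.43, with 1 called lower and 0 called higher. The 0.43 came from a bright probe set whose groups did not overlap (adjusted p = 0.063 by limma). Kdm2a had a difference of -0.32 (adjusted p = 0.031 by limma), with -0.01 as the mean of its 7 probe sets, and its call ended on leaving out any 1 array (0.058 to 0.077). Kdm4d, near the floor of the scale, had -0.12 (adjusted p = 0.049 by limma), and likewise lost its call without any 1 array (0.058 to 0.13).

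Both demethylases of the Polycomb mark failed to pass. Kdm6b, known from mouse work to act at the Nfatc1 promoter in osteoclast precursors, had 8.61, 8.31 and 8.41 on the KI arrays, against 8.85, 8.59 and 8.69 on the WT arrays, a difference of -0.27 (95% interval -0.54 to 0.01, adjusted p = 0.14 by limma). Kdm6a had 10.41, 10.15 and 10.17 on the KI arrays, against 10.25, 9.99 and 10.17 on the WT arrays, a difference of 0.11 (-0.15 to 0.37). Kdm1a, a flavin-dependent demethylase, had 11.23, 11.21 and 11.15 on the KI arrays, against 11.61, 11.27 and 11.33 on the WT arrays, a difference of -0.21 (-0.45 to 0.04).

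Of 11 histone deacetylases, 3 rose, 1 fell and 7 did not pass. All 3 rises were class IIa enzymes, which act in the nucleus as partners of MEF2 and other factors. Hdac9, one of them, had 9.18, 9.23 and 9.23 on the KI arrays, against 6.57, 7.61 and 7.81 on the WT arrays. The KI arrays lay close together, while WT 1 lay far below the other WT arrays. Hdac9 rose by 1.88 (SE 0.33, adjusted p = 0.014 by limma), a 3.68-fold change. Without KI 3 the difference was 1.87 with an adjusted p of 0.057, and with the mean of both probe sets it was 1.20.

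Hdac7, another class IIa enzyme, had 8.40, 8.32 and 8.47 on the KI arrays, against 7.93, 7.94 and 8.10 on the WT arrays. The difference was 0.41 (SE 0.08, adjusted p = 0.019 by limma), and it was 0.20 with the newer spike-in scaling (adjusted p = 0.13) and -0.12 with the older one. The call ended without KI 1 (0.062), KI 3 (0.077) or WT 2 (0.062). Hdac4 had 8.13, 8.31 and 8.20 on the KI arrays, against 7.97, 7.90 and 7.95 on the WT arrays, a difference of 0.27 (adjusted p = 0.045 by limma) that was -0.26 with the older spike-in scaling and lost its call without any 1 array (0.063 to 0.13). The remaining class IIa enzyme, Hdac5, had a difference of 0.29 that did not pass (adjusted p = 0.096).

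Hdac2, a class I enzyme of corepressor complexes, had 10.96, 11.28 and 11.04 on the KI arrays, against 12.36, 11.92 and 12.11 on the WT arrays. It fell by 1.04 (SE 0.14, adjusted p = 0.0069 by limma). Its close relative Hdac1 had 10.85, 11.11 and 11.07 on the KI arrays, against 11.23, 11.09 and 11.08 on the WT arrays, and the groups overlapped. The difference for Hdac1 was -0.12 (95% interval -0.34 to 0.10). Hdac3 had 10.50, 10.63 and 10.50 on the KI arrays, against 10.85, 10.70 and 10.58 on the WT arrays, a difference of -0.16 (-0.38 to 0.05).

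The 7 sirtuins divided into 3 falls, 2 rises and 2 that did not pass. Sirt5, the mitochondrial enzyme that removes succinyl groups, had 8.74, 8.90 and 8.80 on the KI arrays, against 9.82, 9.46 and 9.67 on the WT arrays. It fell by 0.84 (SE 0.11, adjusted p = 0.0061 by limma). Sirt1, a nuclear deacetylase, had 9.69, 9.86 and 9.78 on the KI arrays, against 10.41, 10.21 and 10.25 on the WT arrays.

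The fall of Sirt1 was 0.51 in size (SE 0.08, adjusted p = 0.0093 by limma). Among the alternatives other than the block, it missed the threshold with the description number as a covariate (adjusted p = 0.051) and with no other. Sirt6, a chromatin-bound deacetylase, had 8.03, 7.86 and 8.08 on the KI arrays, against 8.32, 8.39 and 8.24 on the WT arrays, a difference of -0.33 (adjusted p = 0.043 by limma). That call ended without any 1 array (0.069 to 0.12).

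Sirt2, the mostly cytoplasmic enzyme that deacetylates tubulin, had 12.22, 11.91 and 12.12 on the KI arrays, against 10.62, 11.18 and 11.35 on the WT arrays. It rose by 1.04 (SE 0.21, adjusted p = 0.019 by limma), with 0.51 under the older spike-in scaling, and the call ended without KI 1 (0.067) or KI 3 (0.072). Sirt7, a nucleolar enzyme, had 11.79, 11.63 and 11.71 on the KI arrays, against 11.18, 11.35 and 11.36 on the WT arrays. Its difference of 0.41 (SE 0.07, adjusted p = 0.014 by limma) was -0.12 with the older spike-in scaling, and the call ended without KI 3 (0.060).

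Of the 71 enzymes, 45 had more than 1 probe set, 175 probe sets in all. Tested over all 45037 probe sets other than controls, of which 18.7% were called, the probe sets of a gene did not always move together. Among the 19 called enzymes with more than 1, all other probe sets were called the same way for 6, some were and none opposite for 4, no other was called for 8, and 1 was called the opposite way for Kdm2a. All 5 Dnmt3a probe sets fell, with differences of -1.18 to -0.50, and all 3 for Jarid2, with -1.59 to -1.53. Both Hdac9 probe sets rose, with 1.88 and 0.52. Setd7 was called on its bright probe set only, since the dim one had -0.00. The probe sets that stand for Prmt7 (adjusted p = 0.054 by limma), Kdm7a (0.068), Ezh2 (0.058) and Kdm4d (0.051) lost their call here. Both the fit and the adjustment cover all probe sets here. Ezh2 and Kdm4d have no other probe set.

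**Figure D3:**
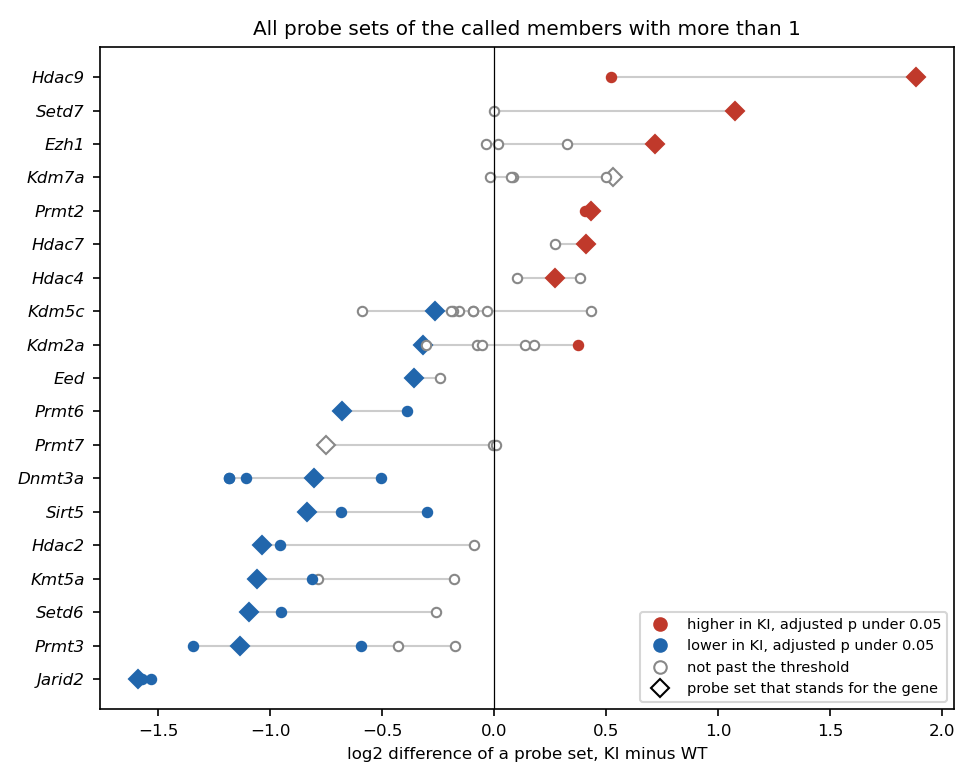
Log2 difference, KI minus WT, of every probe set (points) of the 19 called enzymes with more than 1 probe set, on a line per gene; diamonds mark the probe set that stands for the gene, filled points passed an adjusted p under 0.05 over all 45037 probe sets, and open ones did not. Dnmt3a and Jarid2 probe sets agree in direction, while Kdm2a has points called on both sides of 0. The open diamonds are Prmt7 and Kdm7a; with the older spike-in scaling Hdac4, Hdac7, Prmt2 and Kdm7a turn to values under 0.

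Partner and neighbouring groups were set beside the enzymes. Nearly all of their genes are bright, so that the share to read their counts against is the 40.9% called among brighter genes, 17.8% as higher and 23.1% as lower. The acetyltransferases, corepressor subunits, Polycomb partners, DNA methylation partners and other JmjC proteins below lay at or under that share in all calls. Among 16 other histone methyltransferases, 8 fell and 1 rose, among the falls Carm1 (-0.49), which methylates arginine, and Dot1l (-0.72) and Smyd2 (-0.84), which methylate lysine. COMPASS subunits, which serve the Kmt2 and Setd1 enzymes, fell in 7 of 13 cases and rose in 1, with a median of -0.32, and Wdr82 had the smallest p (-0.58). Of 18 histone acetyltransferases, which oppose the deacetylases, 4 fell and 3 rose, with Kat14 at -0.50, Kat2a at -0.58 and Ncoa3 at 0.74. Among 22 subunits of deacetylase corepressors, 5 fell and 2 rose, with Sin3a at -0.36 and Mta3 at 0.57.

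Polycomb partners gave 5 falls and 6 rises among 27. Aebp2, a subunit that joins Polycomb complex 2, fell by 0.90, and Phc2 and Cbx6, of Polycomb complex 1, had differences of 0.95 and 0.92. DNA methylation partners and readers gave 3 falls and 3 rises among 15, with Mbd3, a methyl-CpG-binding family protein of a corepressor complex, at -0.69. Other JmjC proteins gave 3 falls and 1 rise among 11, with Jmjd6 at -0.68 and Jmjd1c at 0.40. With the older spike-in scaling 0 genes of any of these lists were higher, and the lower ones numbered 11 of the other methyltransferases, 11 of the COMPASS subunits, 6 of the acetyltransferases, 9 of the corepressor subunits, 15 of the Polycomb partners, 4 of the DNA methylation partners and 4 of the JmjC proteins. Under that scaling 45.1% of all genes were lower, and the counts for the acetyltransferases, corepressor subunits, DNA methylation partners and JmjC proteins lay below that share. The share among brighter genes was not computed there, so the other counts are not read as an excess.

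Of 7 measured genes that such enzymes are known to act on in osteoclast work, 3 fell, 2 rose and 2 did not pass, with a median of -0.60. Nfatc1, Prdm1 (-1.55) and Fos (-1.08) fell, and Irf8 was one of the rises; with the older spike-in scaling 4 were lower and 1 higher. Irf8, a transcription factor that holds back osteoclast formation, had 12.47, 11.95 and 12.12 on the KI arrays, against 9.71, 10.99 and 11.09 on the WT arrays, a difference of 1.58 (adjusted p = 0.037 by limma). Nfatc1, the transcription factor that drives osteoclast genes, had 11.70, 11.91 and 11.79 on the KI arrays, against 12.93, 12.68 and 12.79 on the WT arrays, a difference of -0.997 (adjusted p = 0.0028 by limma). Neither overlapped between groups, and WT 1 stood far below the other WT arrays for Irf8. No mark on histones or DNA was measured.

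Genes of cell division and cell state were also set beside the enzymes. Nearly all of those in the 3 lists that follow are bright. Of the brighter genes 40.9% were called, 17.8% as higher and 23.1% as lower. Of 25 S phase and mitosis genes, 10 fell and 0 rose, with a median of -0.78 and Cdc6, which loads the replicative helicase, at -1.42. The S phase and mitosis genes lay near the share of the brighter genes in all calls, and every call was a fall. Their mean log2 intensity was 10.40, 11.21 and 10.95 on the KI arrays, against 11.97, 11.54 and 11.49 on the WT arrays, and their summed intensity was 52984 to 90721 on the KI arrays, against 107208 to 143388 on the WT arrays. KI 1 was lowest and WT 1 highest, as for Ezh2 and Dnmt1. Osteoclast markers fell in 8 of 11 cases (summed intensity 33307 to 37205 on the KI arrays, against 73055 to 84864 on the WT arrays), and macrophage markers rose in 10 of 11 (181898 to 192846 on the KI arrays, against 115642 to 144955 on the WT arrays). With the older spike-in scaling 25 S phase and mitosis genes and 9 osteoclast markers were lower, and 4 macrophage markers were higher and 0 lower. With the newer one the counts were 12 and 8 lower, and 6 macrophage markers higher. Of all genes, 45.1% (older) and 27.2% (newer) were lower under these scalings. The part of cell division or cell state in the enzymes' differences was not tested.

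Few markers of other cells passed the threshold, but the summed signal of some lists differed between the groups. Neutrophil and progenitor markers were called higher in 1 and lower in 1 of 10 cases, with summed intensities of 22278 to 43820 on the KI arrays, against 15987 to 19997 on the WT arrays, and KI 1 the highest. B cell markers gave 1 call of 7, Ighm, which rose, and their summed intensity was 6993 to 11327 on the KI arrays, against 1794 to 4822 on the WT arrays. Erythroid and megakaryocyte markers gave 1 of 6, Pf4, which rose, with sums of 7415 to 9077 on the KI arrays, against 2399 to 3290 on the WT arrays. The groups did not overlap in either sum, nor in that of the neutrophil and progenitor markers. Stromal markers gave 1 call of 8, Dcn, which fell, with overlapping sums of 2745 to 10311 on the KI arrays, against 2806 to 8930 on the WT arrays. T and NK markers gave 0 of 6 calls and summed to 337 to 338 on the KI arrays, against 310 to 339 on the WT arrays, and mast cell markers gave 0 of 5, with 269 to 318 on the KI arrays, against 262 to 303 on the WT arrays. Their part in the result was not tested. Xist lay between 13.80 and 13.96 on all 6 arrays, while Uty and Eif2s3y were near the floor, values that stand beside the X-linked Kdm5c, Kdm6a, Hdac6 and Hdac8.

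**Figure D4:**
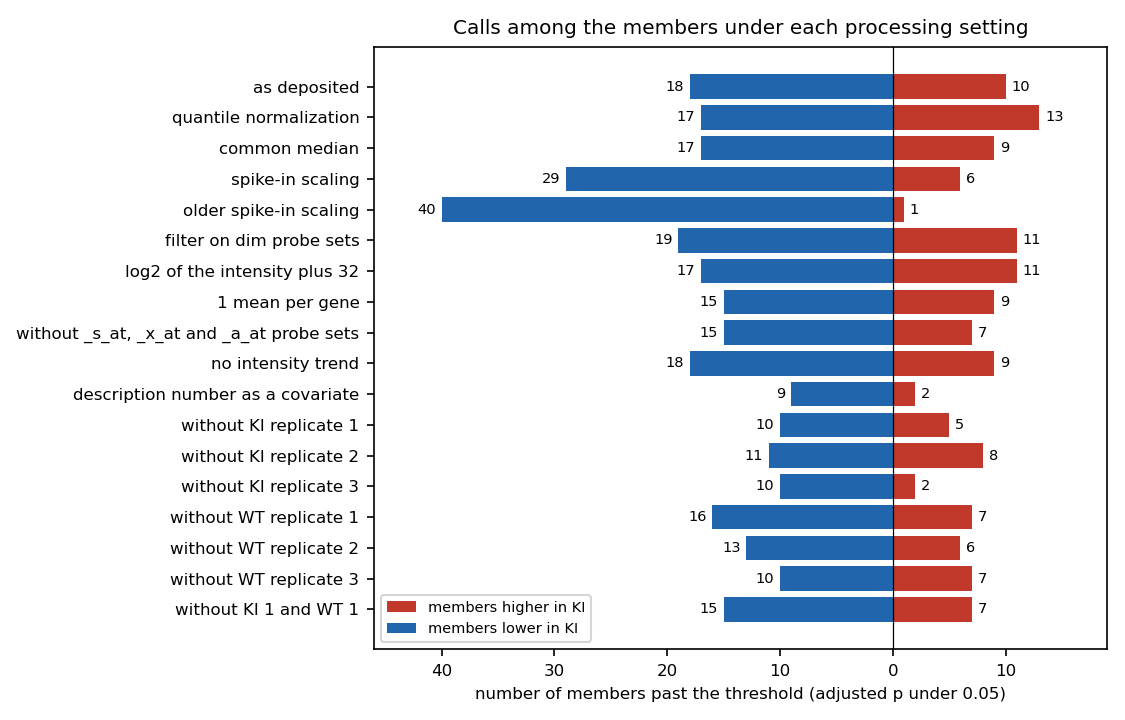
Number of the 71 enzymes called higher (red, right) and lower (blue, left) in KI cells at an adjusted p under 0.05, for the intensities as deposited and 17 alternatives. Among those drawn, falls ran between 9 (description number as a covariate) and 40 (older spike-in scaling), and rises between 1 (older spike-in scaling) and 13 (quantile normalization). The fit with the replicate number as a block, which left 1 higher and 1 lower, is not drawn.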

How the data were processed

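Gene expression was measured on 6 Affymetrix mouse arrays, 3 KI and 3 WT. Per the labels' protocols, total RNA was made into biotin-labelled cRNA from an oligo-dT primer. The values deposited by the authors are linear intensities, 1 for each array and probe set. Affymetrix Expression Console made them, per the submitters' processing notes. For its version, its summarisation and its normalization, the sources used here give nothing. The median intensity of an array was 83.0 to 84.8.

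Of 45101 probe sets, 64 controls were left out. The platform annotation gave 34945 a single symbol, 932 several and 9160 none, and 18031 of the 18193 genes matched a RefSeq gene table (GRCm38.p6). Intensities were floored at 16 (5.47% lay below) and log2 transformed. limma 3.58.1 in R 4.3.3 (lmFit, eBayes with an intensity trend) compared KI with WT, with Benjamini-Hochberg adjustment over all genes and a threshold of 0.05. An exact permutation test of single values cannot go below p = 0.1 with 3 against 3 arrays. No 2 arrays held identical values.

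The rule for named genes gave values on every array for up to 12 called members with the largest rise and 12 with the largest fall whose groups did not overlap, for a set of Polycomb, demethylase, DNA methylation, deacetylase, sirtuin and arginine methyltransferase genes whatever their result, and up to 3 members of each other list by smallest p, plus Irf8, Nfatc1 and sex-linked genes. The members and lists were chosen with earlier results of these data known. In simulated arrays of 18193 genes for this comparison, limma recovered 29.9% of 67 genes given a log2 change of 0.5, 76.1% of 67 given a change of 1 and 87.9% of 66 given a change of 2, and it called 12 unchanged genes. The changed genes were a far smaller share than the 26.8% called in the data. The adjusted threshold was therefore stricter there, and the rates do not give the sensitivity of the real comparison. Alternatives were other scalings, a filter, log2 of the intensity plus 32, other ways to choose a probe set, no intensity trend, a replicate block, a covariate and leaving out arrays.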

Additional observations from a re-analysis of the deposited data

How the results depend on the processing

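Over the 17 alternatives other than the block, 9 falls kept their call wherever a value could be had (Prmt1 and Prmt5 have none without probe sets named _s_at, _x_at or _a_at). Leaving out 1 array gave 12 to 23 calls, with 2 to 8 higher and 10 to 16 lower, where 11.1% to 24.1% of all genes were called. By family these ranges were, for higher and lower calls, 0 to 0 and 1 to 3 (Polycomb complex 2), 0 to 1 and 1 to 1 (DNA methylation), 1 to 1 and 3 to 5 (arginine methyltransferases), 1 to 2 and 2 to 3 (lysine methyltransferases), 0 to 1 and 0 to 1 (demethylases), 0 to 2 and 1 to 1 (deacetylases) and 0 to 2 and 2 to 2 (sirtuins). The older spike-in scaling gave 1 higher and 40 lower, a median of -0.63, and for higher and lower calls 0 and 4 (DNA methylation), 0 and 4 (Polycomb complex 2), 0 and 6 (arginine methyltransferases), 1 and 6 (deacetylases), 0 and 10 (demethylases), 0 and 7 (lysine methyltransferases) and 0 and 3 (sirtuins). There Hdac4 turned to -0.26, Hdac7 to -0.12, Kdm7a to -0.0011, Prmt2 to -0.10 and Sirt7 to -0.12. The newer scaling gave 6 and 29, a median of -0.31, and 0 and 5 arginine methyltransferases, 1 and 2 deacetylases, 0 and 7 demethylases and 1 and 7 lysine methyltransferases. Of all genes, these scalings called 421 higher and 8198 lower (older) and 1281 and 4946 (newer), against 2164 and 2704 as deposited. The covariate gave 11 calls, 2 higher and 9 lower, with 0 higher in DNA methylation, Polycomb complex 2, deacetylases, demethylases and sirtuins, and 1 lower in Polycomb complex 2, 3 in arginine methyltransferases, 0 in demethylases and 1 in sirtuins. The filter left 0 higher in DNA methylation, since Dnmt3l is too dim to pass it and was not tested there. It also gave 2 lower deacetylases, 2 higher demethylases and 2 higher lysine methyltransferases. Log2 of the intensity plus 32 and quantile normalization each gave 2 higher demethylases and 2 higher lysine methyltransferases, and the second also 2 higher arginine methyltransferases. Without the intensity trend there were 2 lower deacetylases and 0 higher demethylases. One mean per gene gave 0 higher in Polycomb complex 2 and 1 lower demethylase. Without _s_at, _x_at and _a_at probe sets there were 0 higher in DNA methylation and Polycomb complex 2, 3 lower arginine methyltransferases and 1 higher sirtuin, and Ezh1 turned to -0.035. Without KI 1 and WT 1 there were 0 higher in DNA methylation, 1 higher deacetylase and 1 lower demethylase. Apart from the removal of Dnmt3l by the filter, the cause of these moves was not tested.

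The replicate number as a block left 2 calls, 1 higher and 1 lower (0 and 1 in Polycomb complex 2, 0 lower in DNA methylation, and 0 in either direction in the other families). With the block 1.89% of all genes were called. Deviations of same-numbered KI and WT arrays correlated at -0.40, -0.29 and -0.30. The labels state no pairing, and whether same-numbered samples share a culture or day was not tested.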
